A study of Homo sapiens with 2 samples.

Results

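The ubiquitin-conjugating enzymes were examined in cells of the human colorectal cancer line HCT116 after knockdown of LAST, a long noncoding transcript under the control of the transcription factor c-Myc. The group was taken as every gene of the deposited table whose symbol starts with UBE2, except UBE2C and UBE2L6. It held 30 of the 11420 gene records. Cells had been infected with lentiviruses carrying LAST shRNA or control shRNA. By the study's methods the mRNA-seq used the hairpin LAST shRNA-1, so an effect of this hairpin cannot be told apart from loss of LAST. Total RNA was taken 96 hr after infection, with 1 library per group. No difference given here therefore has a replicate check, and no p-value, SD or counting interval is given, since the number of reads behind a value is unknown. Levels are in FPKM, the number of fragments scaled to transcript length and library size, so they can be compared between genes. Log2 ratios were the difference of log2(FPKM + 1), LAST shRNA library minus control shRNA library, which understates differences of weakly expressed genes. A gene was counted as higher or lower at 0.58 or -0.58, about 1.49-fold in FPKM + 1. Folds given for single genes are plain ratios of FPKM without the added 1, so they are not the log2 ratios in another form. The labels were not checked by the level of LAST, which was not analysed here. The epithelial markers EPCAM (139 with LAST shRNA, 137 with control shRNA), KRT8, KRT18, KRT19 and CDH1 were high in both libraries, CDX2 was at 1.02 and 1.58, and CDX1 and VIL1 had no record. Of 13 markers of fibroblasts, blood and endothelium only COL1A1 had a record, at 1.90 and 1.32.

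Ubiquitin is joined to proteins by a relay in which an E1 enzyme activates it, an E2 enzyme carries it as a thioester on a cysteine, and an E3 ligase brings the E2 to the substrate. The E2 decides in many cases whether the first ubiquitin is placed or a chain is built, and through which lysine the chain is linked. Chains linked through lysine 48 mark proteins for the proteasome, chains through lysine 63 serve in signalling and DNA repair, and a few E2 enzymes carry SUMO or NEDD8 in place of ubiquitin. Cyclin D1, the product of the mRNA of main interest in the study, is itself a short-lived protein removed by this system.

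The part that defines a classical E2 is short. In the reference coding sequences (GENCODE 29, GRCh38, the longest coding transcript of each gene) a histidine, proline and asparagine codon in a row, written CANCCNAAN with C or T as the third base of the first and last codon, stood in frame in 18 of the 30 genes, and in all 18 a cysteine codon followed within 11 codons. Among the other 12, in which no cysteine codon was looked for, were UBE2V1 and UBE2V2, E2 variants that lack the catalytic cysteine. The UBE2E, UBE2J and UBE2Q enzymes were also among the 12. Absence of this codon run does not show that a gene lacks the cysteine. The coding stretch from this signature to 4 codons after the cysteine is shown, with the cysteine codon in capitals, for UBE2K and UBE2A, the highest ratios of the group, and for UBE2D2 and UBE2D3, the most alike of the pairs compared (UBE2A with UBE2B, and the UBE2D genes with each other):
UBE2K: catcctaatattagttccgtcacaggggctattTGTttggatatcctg
UBE2A: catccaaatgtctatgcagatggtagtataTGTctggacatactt
UBE2D2: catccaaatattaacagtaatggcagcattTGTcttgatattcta
UBE2D3: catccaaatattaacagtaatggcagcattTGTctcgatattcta
The capital codon is codon 92 of UBE2K, 88 of UBE2A and 85 of UBE2D2 and UBE2D3. In GRCh38 the stretches lie at chr4:39755681-39755728 (plus strand, exon 4), at chr5:139614885-139614929 (plus strand, exon 5) for UBE2D2 and at chr4:102801491-102801535 (minus strand, exon 6) for UBE2D3, while that of UBE2A crosses from exon 4 to exon 5 on the X chromosome. The UBE2D2 and UBE2D3 stretches differ at 1 of 45 bases. Over the whole coding sequence of 441 bases they were 86.6% identical, against 80.5% for UBE2A and UBE2B over 456 bases.

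Of the 30 genes, 1 was lower and 3 were higher with LAST shRNA. UBE2K, UBE2A and UBE2Q1 were higher and UBE2B was lower, and the other 26 lay between -0.46 and 0.39 on the log2 scale. In plain FPKM these 26 were at most 1.48-fold higher (UBE2D4, log2 ratio 0.33) and 1.38-fold lower (UBE2T). Over all 11420 records 5.88% were lower and 6.80% were higher, which sets 1 of 30 (3.33%) and 3 of 30 (10.0%) beside those shares. With so few genes these shares do not set the group apart. The median log2 ratio was 0.10 for the 30 genes and 0.01 for all records, and 19 of the 30 were above 0, against 51.3% of all records. Ratios within 0.2 of 0 were found in 16 genes (53.3%), against 52.4% of all records.

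**Figure D1:**
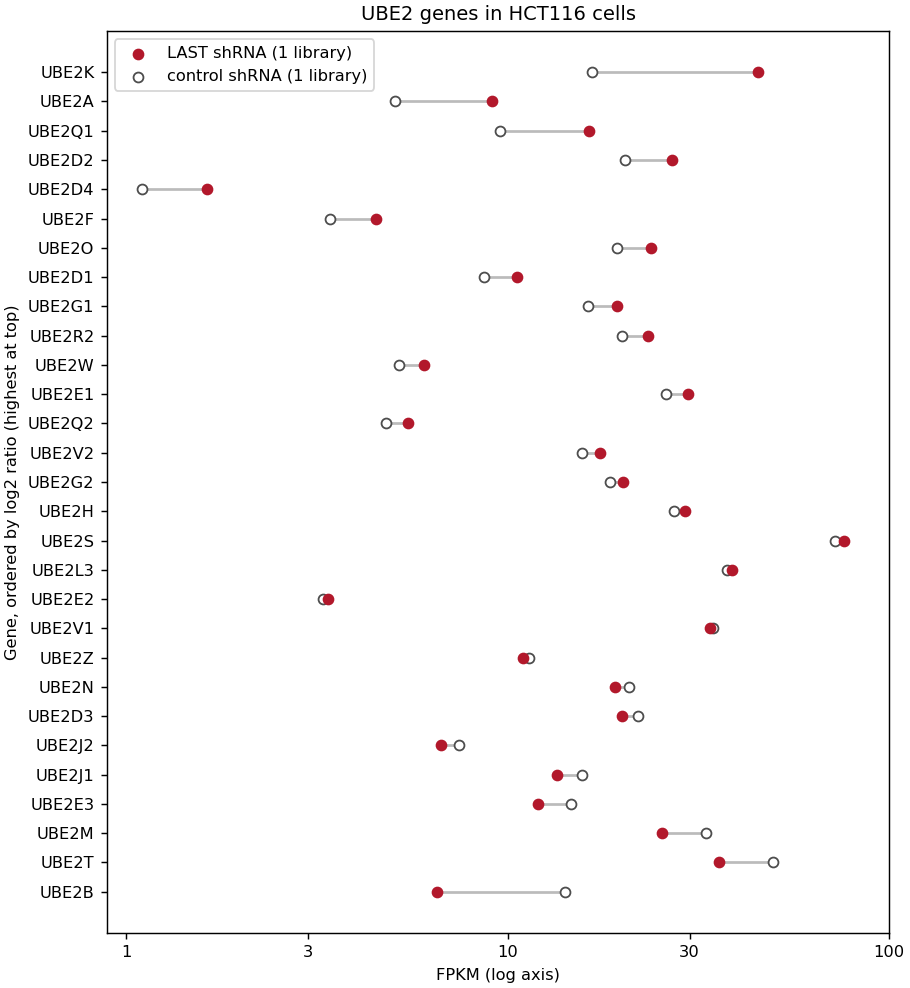
FPKM (log axis) of 29 of the UBE2 genes with LAST shRNA (filled points) and control shRNA (open points), 1 library each, ordered by log2 ratio with the highest at the top. UBE2K stands furthest to the right of its control value, at 45.3 against 16.6, UBE2B furthest to the left, at 6.52 against 14.1, and most other pairs lie close together.

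The E2 genes were well expressed in both libraries. Their median was 18.3 FPKM with LAST shRNA and 16.0 with control shRNA, against 5.25 and 5.20 over all records, and none was listed at 0. The 30 genes summed to 606 FPKM with LAST shRNA and 570 with control shRNA. Without UBE2K the sums were 561 and 554. UBE2S was the highest in either library, with 12.6% of the summed FPKM in each. Next in order with LAST shRNA were UBE2K (45.3), UBE2L3 (38.7), UBE2T (35.9) and UBE2V1 (34.0). With control shRNA they were UBE2T (49.7), UBE2L3 (37.7), UBE2V1 (34.5) and UBE2M (33.2). Of these genes UBE2K moved furthest, from place 14 with control shRNA to place 2 with LAST shRNA. UBE2T was above UBE2L3 with control shRNA and below it with LAST shRNA. UBE2M, at 25.4 with LAST shRNA, was not among the first 5 there. UBE2S, UBE2L3, UBE2V1 and UBE2M share stretches of sequence with other genes (given below), so their places in this order are uncertain. UBE2D4 was the lowest, at 1.63 and 1.10, followed by UBE2E2 at 3.37 and 3.27.

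UBE2K builds chains linked through lysine 48 and carries a ubiquitin-binding domain behind its catalytic core. It was at 45.3 FPKM with LAST shRNA and 16.6 with control shRNA, 2.73-fold higher (log2 ratio 1.40). Only 163 of the 11420 records had a higher ratio, since it stood at rank 164 from the top. Its share of the summed E2 FPKM was 7.47% with LAST shRNA, against 2.91% with control shRNA. The UBE2K record (ENSG00000078140.13_2) spans positions 39699664 to 39784412 of chromosome 4 (hg19, plus strand), with 7 exons in the longest coding transcript. UBE2G1 and UBE2R2, which lengthen chains on substrates of cullin ligases, were at 19.4 against 16.2 (0.25) and at 23.4 against 20.0 (0.22). CDC34, the sister gene of UBE2R2 outside the UBE2 naming, was at 22.0 FPKM with LAST shRNA, against 8.77 with control shRNA, 2.51-fold higher (1.23). CDC34 was set beside these genes after its value was seen.

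UBE2A and UBE2B are the human forms of yeast Rad6. With the ligase RAD18 they mark the replication clamp PCNA after DNA damage, and with RNF20 and RNF40 they place ubiquitin on histone H2B. UBE2A was at 9.09 FPKM with LAST shRNA and 5.05 with control shRNA, 1.80-fold higher (0.74, rank 509 from the top). UBE2B was at 6.52 and 14.1, 2.16-fold lower (-1.01, rank 283 from the bottom). This close pair thus lay on opposite sides of the threshold, and the difference of their log2 ratios was 1.74. Their sum was 15.6 with LAST shRNA and 19.1 with control shRNA, a smaller fold difference than that of either gene, while the share of UBE2A in it was 58.3% with LAST shRNA and 26.4% with control shRNA. The partner ligases were all slightly lower with LAST shRNA. RAD18 was at 7.15 against 8.45 (-0.21), RNF20 at 6.79 against 9.69 (-0.46) and RNF40 at 14.8 against 18.4 (-0.29). None of them was past the threshold. In hg19 UBE2A (ENSG00000077721.15_1) spans positions 118708430 to 118725046 of the X chromosome and UBE2B (ENSG00000119048.7_2) positions 133706870 to 133727683 of chromosome 5, each on the plus strand. No stretch of 50 bases of their longest coding transcripts was shared with each other or with a transcript of any other annotated gene.

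UBE2Q1, a large E2 with a long region before its catalytic domain, was at 16.3 FPKM with LAST shRNA and 9.52 with control shRNA, 1.71-fold higher (0.72, rank 540 from the top). Its record (ENSG00000160714.9_1) spans positions 154521053 to 154531504 of chromosome 1 (hg19, minus strand). Its relative UBE2Q2 was at 5.48 against 4.81 (0.16). The difference between these log2 ratios was 0.56. In either library UBE2Q1 held most of the sum of the pair, with 74.8% with LAST shRNA and 66.4% with control shRNA.

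With UBE2A and UBE2B, the genes UBE2T and UBE2S made up the role group of cell cycle and DNA repair, which had the highest summed FPKM of the 8 groups (128 with LAST shRNA and 141 with control shRNA) and the lowest median log2 ratio (-0.19). UBE2T, which works with FANCL to ubiquitinate FANCD2 in the Fanconi anaemia pathway, was at 35.9 FPKM with LAST shRNA and 49.7 with control shRNA (-0.46), short of the threshold. Its partner FANCL was at 7.89 and 8.63 (-0.11). UBE2S, which lengthens chains linked through lysine 11 on substrates of the anaphase-promoting complex, was at 76.2 and 72.0 (0.08). Among the 30 genes UBE2T had the lowest difference in FPKM (-13.7), against -7.58 for UBE2B, whose ratio was lower.

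**Figure D2:**
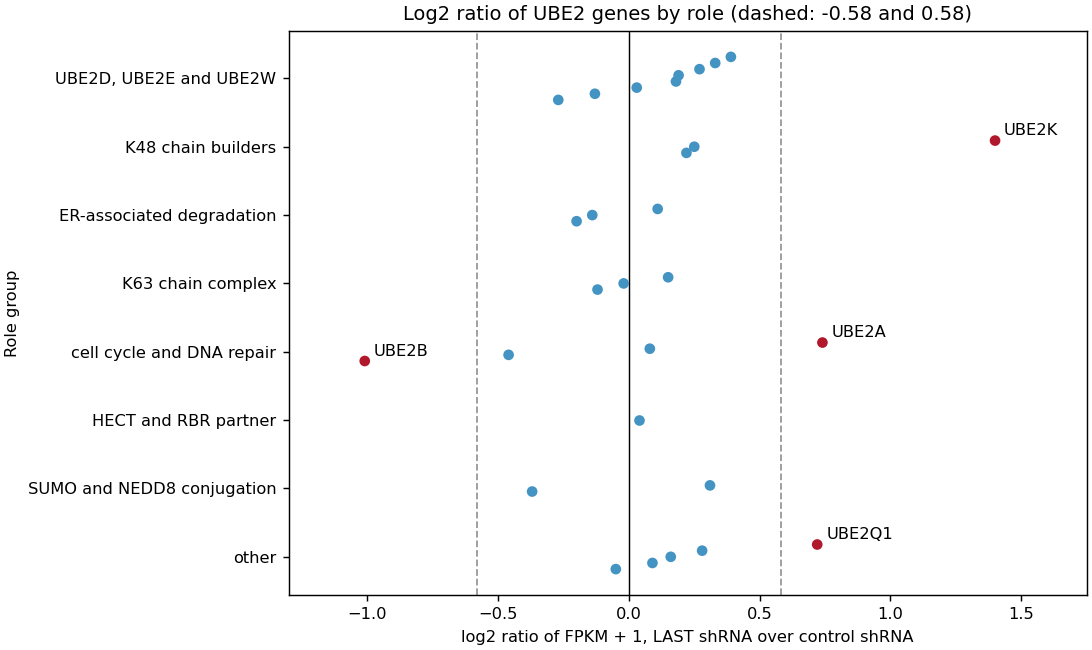
Log2 ratio of FPKM + 1, LAST shRNA over control shRNA, for 29 of the UBE2 genes in 8 role groups (1 point per gene; dashed lines at -0.58 and 0.58; genes past them in red and named). UBE2K, UBE2A and UBE2Q1 lie right of the upper line and UBE2B left of the lower line, each in a group whose other genes lie between the lines or on the other side.

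The UBE2D, UBE2E and UBE2W enzymes, which place the first ubiquitin with many ligases, held 8 genes, of which 0 were past the threshold and 6 were above 0. UBE2D2 was at 26.9 FPKM with LAST shRNA and 20.3 with control shRNA (0.39), the highest ratio short of the threshold, while UBE2D3 was at 19.9 and 22.0 (-0.13). The ratios of UBE2D2 and UBE2D3, so alike in sequence, differed in sign, but that of UBE2D3 was within 0.2 of 0. Neither was past the threshold, and the pair summed to 46.8 with LAST shRNA and 42.3 with control shRNA. UBE2D1 was at 10.6 against 8.65 (0.27) and UBE2D4 at 1.63 against 1.10 (0.33). UBE2E1 was at 29.7 against 26.0 (0.18), UBE2E2 at 3.37 against 3.27 (0.03) and UBE2E3 at 12.0 against 14.7 (-0.27). UBE2W, which adds ubiquitin to the amino terminus of proteins, was at 6.05 against 5.19 (0.19). As a group these genes summed to 110 FPKM with LAST shRNA and 101 with control shRNA.

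The E2 enzymes of signalling chains and of the endoplasmic reticulum had small ratios. UBE2N, the catalytic partner in the complex that makes lysine 63 chains, was at 19.1 FPKM with LAST shRNA and 20.8 with control shRNA (-0.12). Its cofactors UBE2V1 and UBE2V2 were at 34.0 against 34.5 (-0.02) and at 17.5 against 15.7 (0.15). The 3 genes together summed to 70.7 with LAST shRNA and 71.0 with control shRNA. UBE2G2, which serves in degradation of misfolded proteins from the endoplasmic reticulum, was at 20.1 against 18.5 (0.11), and the membrane-anchored UBE2J1 and UBE2J2 were at 13.5 against 15.7 (-0.20) and at 6.68 against 7.45 (-0.14). None of these 6 E2 genes came near the threshold.

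Of the remaining ubiquitin carriers, UBE2L3, which passes ubiquitin only to HECT and RBR ligases with a cysteine of their own, was at 38.7 FPKM with LAST shRNA and 37.7 with control shRNA (0.04). UBE2H, the E2 of the CTLH ligase, was at 29.1 against 27.3 (0.09). UBE2O, a very large enzyme that joins E2 and E3 activity in 1 protein, was at 23.8 against 19.4 (0.28). UBE2Z, an E2 that is charged by UBA6, was at 11 against 11.4 (-0.05), and UBA6 was at 9.22 against 10.9 (-0.22).

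SUMO and NEDD8 have E1 enzymes of their own. UBA2, the catalytic subunit of the SUMO E1, was at 17.6 FPKM with LAST shRNA and 27.1 with control shRNA, 1.54-fold lower (-0.59), just past the threshold, and its partner SAE1 was at 28.7 against 30.5 (-0.09). The modifiers SUMO2 and SUMO3 were at 107 against 108 (-0.01) and 9.68 against 11.6 (-0.24). Of these SUMO genes UBA2 alone was past the threshold. For NEDD8, which switches cullin ligases on, UBE2M was at 25.4 against 33.2 (-0.37) and UBE2F at 4.51 against 3.43 (0.31). UBE2M pairs with RBX1 (18.9 against 19.3, -0.03) and UBE2F with RNF7 (10.4 against 10.2, 0.02). The NEDD8 E1 subunits UBA3 and NAE1 were at 8.84 against 13.1 (-0.52) and 23.5 against 23.7 (-0.01), and NEDD8 was at 15.5 against 16.5 (-0.08). None of these NEDD8 genes was past the threshold.

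The other genes of the pathway were read from 12 lists, with 220 of 237 listed genes measured. Of these, 12 were lower (5.45%) and 16 were higher (7.27%), near the shares over all 11420 records (5.88% lower and 6.80% higher). Their median log2 ratio was -0.04. The counts in single lists given below are small and were not tested. None of the 4 genes that encode ubiquitin reached the threshold. UBB was at 163 FPKM with LAST shRNA and 171 with control shRNA (-0.07) and RPS27A at 156 against 145 (0.11). Among 9 ubiquitin-like modifiers ISG15, induced by interferons, was at 220 against 80.3 (1.44) and was the one past the threshold. Of 9 E1 genes 2 were lower and 0 were higher, with a median of -0.22, the lowest of the 12 lists. They were UBA2 and MOCS3, an activating enzyme for URM1 that was at 4.62 with control shRNA and is listed at 0 with LAST shRNA. UBA1, the main E1 of ubiquitin, was at 52.2 against 49.1 (0.08). Of the 8 E2 genes and E2 variants without the UBE2 prefix, CDC34 was higher and TSG101, an E2 variant of the sorting complex ESCRT-I, was lower (9.86 against 15.5, -0.61).

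Ligases showed single genes past the threshold in either direction. In the cullin ligase core 2 of 22 were lower and 0 were higher, namely CAND1, which exchanges substrate receptors (9.76 FPKM with LAST shRNA and 17.6 with control shRNA, -0.79), and DCUN1D4, a cofactor of NEDD8 transfer (3.75 against 7.17, -0.78). The most abundant gene of this list was TCEB2, an elongin subunit of cullin ligases, at 55.7 against 56.4 (-0.02). Among 16 anaphase-promoting complex genes the subunit ANAPC13 was lower (4.56 against 15.2, -1.54), and the subunits CDC23 (12.3 against 5.08, 1.12) and CDC26 (21.2 against 11.3, 0.86) were higher. CDC20, its mitotic activator, was at 116 against 140 (-0.27). This complex thus held subunits on both sides, with a median of -0.02. Of 27 HECT ligases HECTD3 was lower (3.81 against 7.31, -0.79). UBE3C (24.1 against 14.9, 0.66) and the interferon-induced HERC6 (4.80 against 1.63, 1.14) were higher. HUWE1, the most abundant, was at 30.3 against 36.2 (-0.25). Of 13 RBR ligases RNF217 was lower (-1.20), and RNF144A (1.57) and RNF31, which makes linear chains (0.67), were higher. ARIH2 was the most abundant of them, at 10.8 against 10.7. Of 14 RING ligases of DNA repair and histones RNF2, which ubiquitinates histone H2A, was lower (6.49 against 10.8, -0.66) and RFWD3 was higher (17.0 against 10.8, 0.61), and RING1 was at 28.3 against 28.0.

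Of the genes that serve in the endoplasmic reticulum, 1 of 15 was lower and 2 were higher. RNF5 was at 13.0 FPKM with LAST shRNA and 25.5 with control shRNA (-0.92), UBXN4 at 30.2 against 16.2 (0.86), and RNF139 at 0.574 against 0.0203 (0.63). VCP, the segregase that pulls ubiquitinated proteins from membranes, was at 46.8 against 44.1 (0.08). Among 15 SUMO ligases and proteases PIAS3 was higher (6.14 against 3.63, 0.62), and RANBP2 was at 30.6 against 29.6. Of 69 measured genes listed as deubiquitinases, 2 were lower and 4 were higher. The largest ratios were those of YOD1 (0.491 against 11.8, -3.11) and VCPIP1 (4.70 against 0.184, 2.27), which both work with VCP. OTUB2 (3.14 against 0.760, 1.23), the ISG15 protease USP18 (4.23 against 2.24, 0.69) and USP49 (1.68 against 0.729, 0.63) were higher. USP37 was lower (2.51 against 4.92, -0.75). EIF3H, the most abundant gene of the list, was at 50.4 against 52.8 (-0.07).

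**Figure D3:**
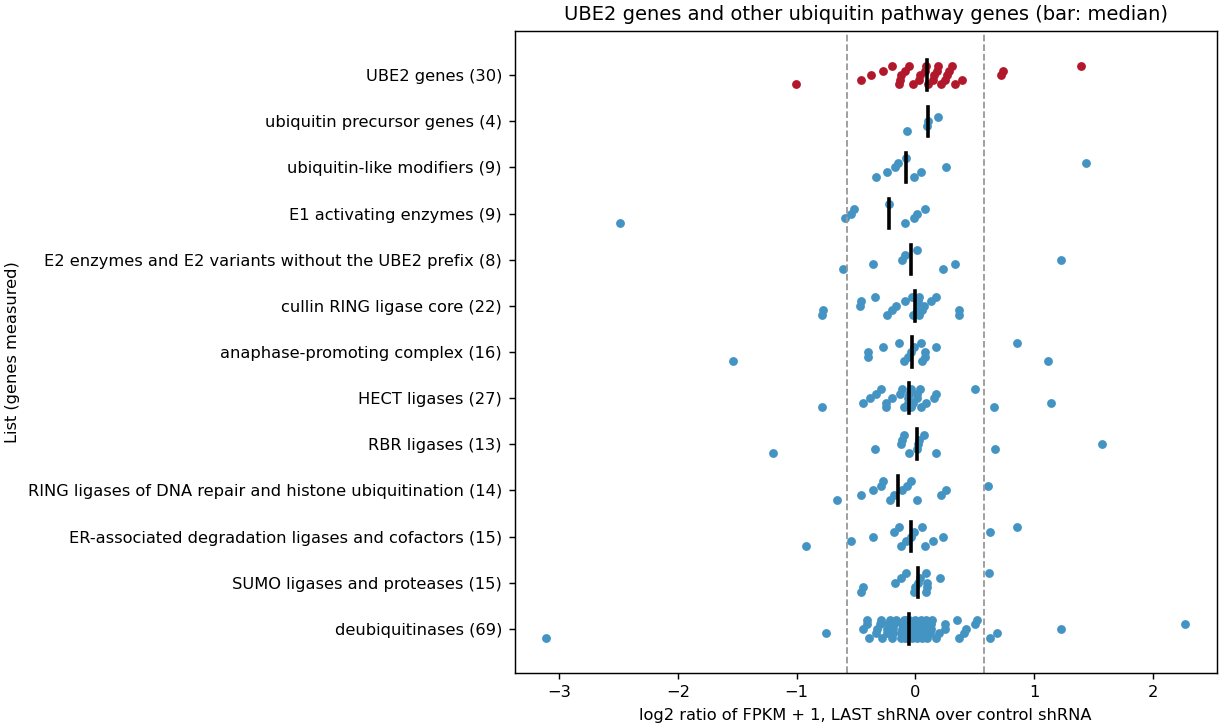
Log2 ratio of FPKM + 1, LAST shRNA over control shRNA, for the 30 UBE2 genes (red) and 12 lists of other ubiquitin pathway genes (blue), 1 point per gene, with black bars at the medians and dashed lines at -0.58 and 0.58. The medians lie between -0.22 and 0.10, and each list but that of the ubiquitin genes holds points past at least 1 line; the lowest E1 point is MOCS3, which is listed at 0 with LAST shRNA.

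The structure of the E2 transcripts was set beside these values. The 30 genes had a median coding length of 549 bases and a median longest coding transcript of 3126 bases. The share of the transcript that was coding had a median over genes of 19.1%, against 45.8% over all annotated records. The largest exon held 50% or more of the transcript in 26 of the 30 genes (86.7%), against 55.0% of all annotated records. Records of that class were past the threshold more often than all records, with 8.14% lower and 9.03% higher. The 4 genes past the threshold all belonged to it, at 84.5% for UBE2K, 70.3% for UBE2B, 69.3% for UBE2A and 59.0% for UBE2Q1, which makes 1 of 26 lower and 3 of 26 higher. The 4 genes with a largest exon under 50% were UBE2T, UBE2M, UBE2E3 and UBE2O, with ratios from -0.46 to 0.28. The part of exon structure in the ratios of single genes was not tested.

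**Figure D4:**
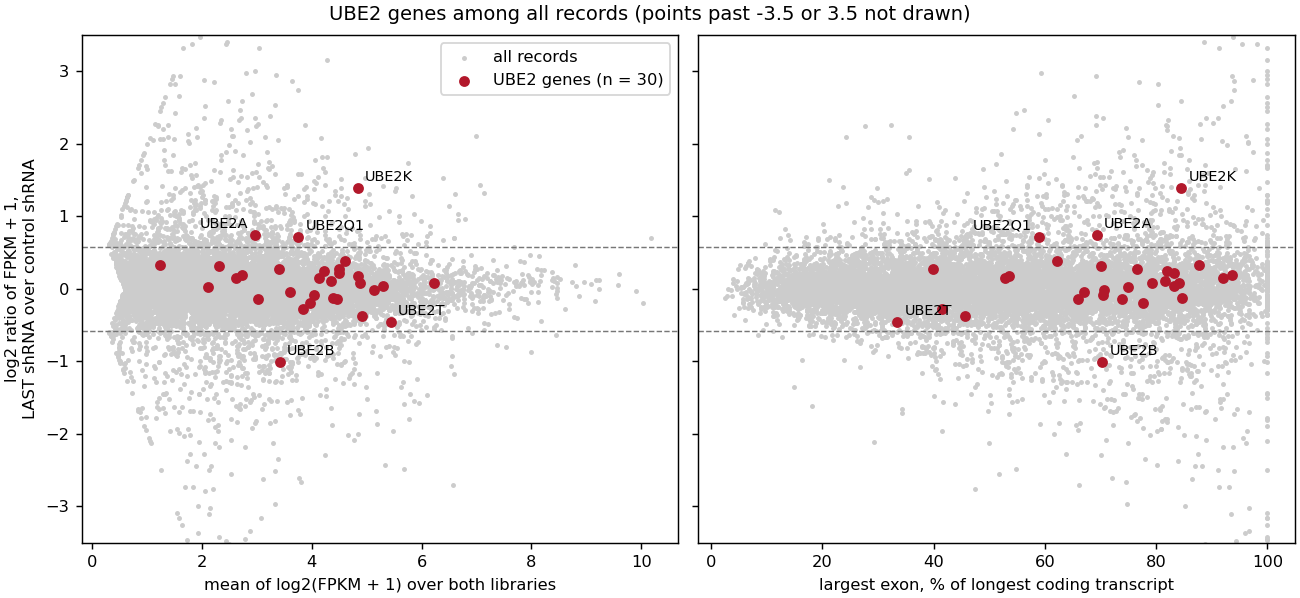
Log2 ratio of FPKM + 1, LAST shRNA over control shRNA, of all records (grey) and the 30 UBE2 genes (red), against the mean of log2(FPKM + 1) over both libraries (left) and against the share of the longest coding transcript held by its largest exon (right), with dashed lines at -0.58 and 0.58. UBE2K, UBE2A, UBE2Q1 and UBE2B lie past the lines, all with a largest exon of 59.0% or more, and most of the red points lie right of 50% in the right panel.

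Copies of E2 genes elsewhere in the genome can share reads. In 14 of the 30 genes no 50-base stretch of the longest coding transcript recurred in an annotated transcript of another gene, and UBE2K, UBE2A, UBE2Q1 and UBE2B were among these 14. The highest share was that of UBE2V1, at 81.2% of its stretches, most often with the read-through gene TMEM189-UBE2V1, and 15 pseudogenes carry its name. It was followed by UBE2F (25.5%, most often with UBE2F-SCLY), UBE2S (17.5%), UBE2M (10.7%), UBE2E3 (10.2%), UBE2L3 (7.96%) and UBE2W (5.09%). The values of these 7 genes, UBE2V1 included, are therefore uncertain. UBE2D2 and UBE2D3 shared few stretches with other genes, 1.17% and 3.84%. On the opposite strand, UBE2N overlapped NUDT4 (1.33 FPKM with LAST shRNA and 9.55 with control shRNA), UBE2S overlapped RPL28 (68.7 against 56.7) and UBE2A overlapped NKRF (0.541 against 0.470). Whether strand was used in counting is not given in the sources used here.

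Promoters of 24 of the 30 genes were held in the RefSeq table used (GRCh38.p14, 35 promoters of 250 bases before to 50 after a start); UBE2B, UBE2H, UBE2Q1, UBE2V2 and UBE2W were among those with no entry. Since the study concerns a c-Myc-inducible RNA and the cell cycle, 4 motifs were searched on both strands. CACGTG, the E-box that MYC binds, was in 0 of the 35 promoters, against 7.26% of all 35116 promoters of this length. GGGCGG, the GC box of SP1, was in 27 of 35 (77.1%), against 45%. CCAAT was in 10 (28.6%), against 34.6%, and TTTGAA, found in promoters of late cell cycle genes, was in 2 (5.71%), those of UBE2T and UBE2F, against 15.2%. By gene, GGGCGG was in 21 of 24 (87.5%), CCAAT in 8 (33.3%), TTTGAA in 2 (8.33%) and CACGTG in 0. The 35116 promoters were not limited to genes of the deposited table or by expression, so they are an unlike background for these well expressed genes. These matches describe the letters of the windows. The 250 bases before the start are shown for UBE2K and UBE2A, the highest ratios, with GGGCGG and its complement CCGCCC in capitals, and for UBE2T, the lowest ratio with an entry, with CCAAT and TTTGAA in capitals:
UBE2K: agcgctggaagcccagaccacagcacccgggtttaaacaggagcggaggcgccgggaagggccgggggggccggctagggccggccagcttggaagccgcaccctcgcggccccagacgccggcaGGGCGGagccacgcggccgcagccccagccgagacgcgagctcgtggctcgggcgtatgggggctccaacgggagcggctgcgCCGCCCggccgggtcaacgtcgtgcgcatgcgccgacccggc
UBE2A: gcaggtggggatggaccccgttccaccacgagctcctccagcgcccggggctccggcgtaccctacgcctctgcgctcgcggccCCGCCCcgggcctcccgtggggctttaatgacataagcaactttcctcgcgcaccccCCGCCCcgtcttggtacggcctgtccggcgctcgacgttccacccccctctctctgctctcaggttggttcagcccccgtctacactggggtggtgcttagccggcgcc
UBE2T: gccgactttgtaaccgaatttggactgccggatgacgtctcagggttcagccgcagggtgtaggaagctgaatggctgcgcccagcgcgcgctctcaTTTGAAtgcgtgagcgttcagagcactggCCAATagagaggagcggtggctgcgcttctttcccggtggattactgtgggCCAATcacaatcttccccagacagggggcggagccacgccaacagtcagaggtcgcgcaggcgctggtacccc
In GRCh38.p14 these windows are chr4:39697886-39698135 on the plus strand, chrX:119574313-119574562 on the plus strand and chr1:202341937-202342186 on the minus strand. UBE2K and UBE2A each held 2 GC boxes in this window, and UBE2T held 2 CCAAT boxes, 1 TTTGAA and, in lower case, 1 GC box.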

How the data were processed

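RNA of 2 libraries of HCT116 cells, 1 with LAST shRNA and 1 with control shRNA, was compared. The authors deposited FPKM values per gene, and both value columns were used. The submitters' processing notes name HISAT2, StringTie, cutadapt and FastQC, and hg19 as the build. No version of these is given in the sources used here. All records are protein-coding, the higher value was at least 0.500 in each, and depth is unknown. Log2 ratios used a pseudocount of 1 and no further scaling, on the scale of the study's methods, and a threshold of 0.58. The counting of calls was run on simulated data with known changes, which checks the counting and not the calls made here. No test between the groups could be run on single libraries.

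Members and gene lists were chosen with earlier results of these data known. Every UBE2 gene but 1, which is counted in the group but not reported here, is given with its values; of the other lists, genes past the threshold (at most 4 per list and direction) and the most abundant gene are named, and SUMO, NEDD8, E1 and ligase partners were added after values were seen. Exon structure, coding sequences and shared 50-base stretches came from GENCODE 29 (GRCh38), joined by gene identifier (99.1% of records), and promoters from RefSeq; protein sequences are not shown. Scripts ran under Python 3.11.15 with pandas 2.3.3 and numpy 2.4.6, and figures were drawn with matplotlib 3.10.9. Pseudocounts, filters, scalings, thresholds, exon structure and overlaps were varied.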

Additional observations from a re-analysis of the deposited data

How the results depend on the processing

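The calls of UBE2K, UBE2A and UBE2Q1 as higher and of UBE2B as lower were the same with pseudocounts of 0.1 and 0.5, among records that reached 1 FPKM in each library, with a median log2 ratio of 0, TPM or equal upper quartiles, and without records that overlap on the same strand, and the median of the 30 genes stayed between 0.09 and 0.11. Over the pseudocounts and scalings the ratio lay between 1.39 and 1.44 for UBE2K, 0.73 and 0.84 for UBE2A, 0.71 and 0.77 for UBE2Q1 and -1.10 and -1.0 for UBE2B. At a threshold of 1 the count of higher genes was 1 (UBE2K) and UBE2B was still lower. Restricted to a largest exon under 50%, 4 genes were left, with 0 lower, 0 higher and a median of -0.32, since the genes past the threshold all have a larger exon. Over all records the higher calls numbered 777, 1242 with a pseudocount of 0.1, 1198 with TPM and 318 at a threshold of 1, and the lower calls 672, 999 with a pseudocount of 0.1, 978 with TPM and 286 at a threshold of 1. With 1 library per group, a difference between these libraries cannot be told apart from an effect of LAST shRNA, and no replicate could be left out.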
